A study of Drosophila melanogaster with 3 samples.

Results

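The X chromosome carried 673 of the 4851 peaks in a list of chromatin sites bound by GFP-tagged Hr78 in wandering third-instar larvae of Drosophila melanogaster. The members were taken by sequence name alone, as all peaks listed on X, and the XHet sequence with its 1 peak was left out. They were mapped by chromatin immunoprecipitation and sequencing (ChIP-seq) with a crude rabbit antibody against green fluorescent protein (GFP ab290). The series holds 2 ChIP libraries and 1 input DNA library, all from the strain Hr78-GFP with the genotype PBac{y[+]-attP-3B}VK00037 and a transgene of the Hr78 genomic coding region. The larvae were collected whole, their sex is given as unknown, and the sources used here do not tell whether the endogenous Hr78 gene was intact. A larva without the transgene was not analysed here, so no value for the antibody alone stands beside the peaks.

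Hr78 is an orphan nuclear receptor, a member of the family of transcription factors that bind DNA through zinc fingers and often respond to small lipophilic ligands. Its closest vertebrate relatives are TR2 and TR4, the testicular receptors. In the fly it is known for its role in the response to the moulting hormone ecdysone, for binding at many puffs of the larval polytene chromosomes, and for its requirement in growth of the tracheal system. The X is the sex chromosome that is present in a single copy in males, where its transcription is raised by dosage compensation. Its telomere lies at the low coordinates and its centromere at the high coordinates.

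The list is a single set of peaks for the whole series and gives each peak a position and a score. Because it holds nothing by library, no number below has a replicate spread behind it, and the depth is unknown. No test was run, and every comparison below is a description of this list. Positions are in FlyBase release 5, count from 1 and include both ends. No source used here defines the score, and it served to rank and group peaks within the list, apart from the reading of its scale given at the end. Peaks with a score of 33.59 or more are called strong. They are the 1000 highest of the list with ties, 1008 peaks in all. Peaks below the list's median score of 14.36 are called weak.

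Hr78-GFP peaks on X were fewer per length than on the large autosomal arms, and the shortfall was largest among the weak peaks. X had 30.8 peaks per Mb over the 21.9 Mb up to its last peak, against 40.7 on 2L, 2R, 3L and 3R together. The 286 weak X peaks came to 13.1 per Mb, against 21.4 on these 4 arms, a ratio of 0.61. Peaks at or above the median score numbered 387, or 57.5% of the X peaks, beside 50.6% of the whole list. The 180 strong X peaks came to 8.23 per Mb, against 7.25, a ratio of 1.14. By single arm, strong peaks stood at 6.97 per Mb on 2L, 8.61 on 2R, 6.77 on 3L and 6.89 on 3R. Arm 2R thus lay above X. In all peaks 2L came nearest to X, at 34.4 per Mb, and 2R, 3L and 3R had 46.3, 40.4 and 42.0. At or above the median score 2L had 16.9 per Mb, below the 17.7 on X, and 2R, 3L and 3R had more. Strong peaks thus made up 26.7% of the X peaks (exact 95% interval 23.4% to 30.3%), beside 20.8% of the whole list. The interval treats peaks as independent, which neighbouring peaks are not, and the whole list includes X. On the single arms their share was 20.2% on 2L, 18.6% on 2R, 16.8% on 3L and 16.4% on 3R, and it was 45.4% on chromosome 4. Because the sex of the larvae is unknown, so is the copy number of X in the material. Whether copy number had a part in these differences was not tested.

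The ratio of X to autosomal density rose from each score class to the next. For scores below 10 it was 0.63, with 130 X peaks, and for scores from 10 to 20 it was 0.67, with 269. It was 0.87 for the 156 X peaks from 20 to 50 and 1.06 for the 76 from 50 to 100. The 36 X peaks from 100 to 200 stood at 1.34 times the autosomal density, and the 6 at 200 or more at 1.39 times, on a small number. X was thus sparser than the pool of 2L, 2R, 3L and 3R below a score of 50 and denser from 50 up. The excess in the class from 50 to 100 was small, at 1.06 times. The score classes were not compared with single arms. Chromosome 4, with 32.6 strong peaks per Mb against 8.23 on X, was not in the pool.

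**Figure D1:**
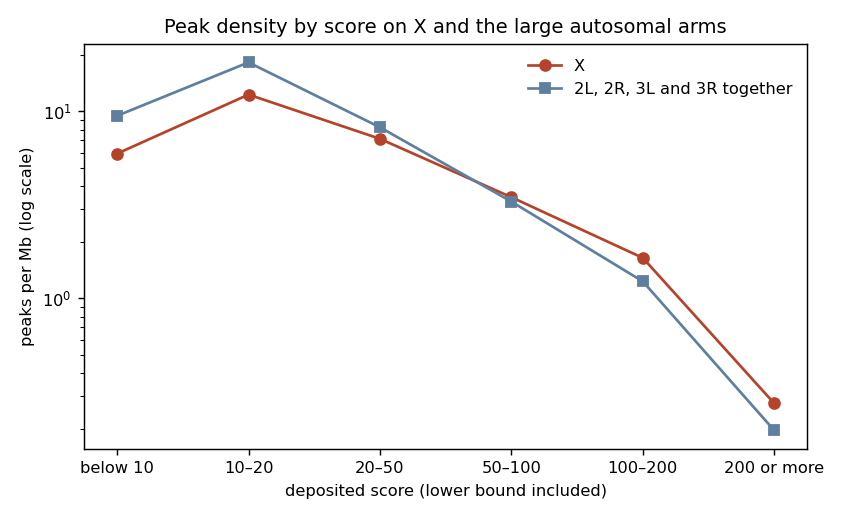
Peaks per Mb (vertical axis, log scale) by class of deposited score (horizontal axis) on X and on arms 2L, 2R, 3L and 3R together; each point is one class in the single list and has no error bar. X lies below the autosomal arms in the lowest class (5.95 against 9.48 per Mb) and above them in the class from 100 to 200 (1.65 against 1.23 per Mb).

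Peaks were densest in the part of X at the telomere side and sparsest in the part at the centromere side. Strong peaks made up a larger share towards the centromere. The span was divided into 5 parts of 4.37 Mb, numbered from the telomere. Part 1 held 190 peaks, part 2 held 139, part 3 held 121, part 4 held 129 and part 5 held 94. Part 1 was the fullest and part 5 the emptiest, with part 4 slightly above part 3. The share of strong peaks was 16.3%, 25.2%, 23.1%, 38.0% and 39.4% in the same order. The median score went from 14.03 in part 1 to 17.76, 17.39, 18.82 and 19.76 in parts 2 to 5, and the median width from 414 bp in part 1 to 494 bp in part 5. When the span was divided into 10 equal parts, the decline in density was not steady. It was 49.4 peaks per Mb in the first of the 10, 20.1 in the 7th, 38.9 in the 8th, 33.4 in the 9th and 9.61 in the last.

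Weak and strong peaks followed different courses along the arm. Weak peaks numbered 22.0 per Mb in part 1, 12.4 in part 2 and 8.01 in part 5, so the largest drop lay between the first and second parts. Strong peaks numbered 7.09, 8.01, 6.40, 11.2 and 8.46 per Mb, with no steady course and the highest value in part 4. Peaks also stood closer together at the telomere side. The median distance between neighbouring centres was 3406 bp in part 1, against 9981, 9090, 11510 and 11511 bp in parts 2 to 5. Within part 1, the first 1 Mb from the telomere had a median of 25295 bp.

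**Figure D2:**
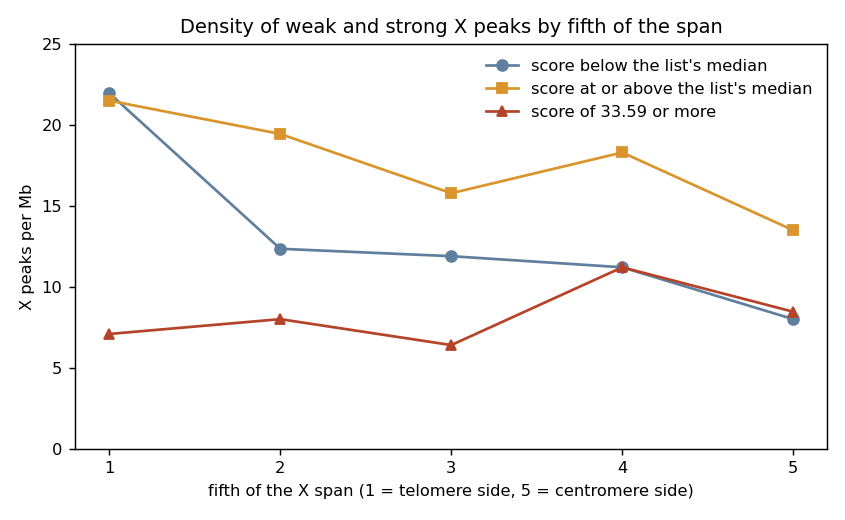
X peaks per Mb (vertical axis) in 5 equal parts of the span from the telomere side to the centromere side (horizontal axis), for weak peaks, for peaks at or above the list's median score, and for strong peaks with a score of 33.59 or more; points have no error bars because the list is single. Weak peaks go from 22.0 to 8.01 per Mb while strong peaks go from 7.09 to 8.46.

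The distal and proximal parts of equal length, 10.9 Mb each, differed in the same direction. The distal part held 382 peaks with 20.4% strong, and the proximal part held 291 with 35.1% strong. The 1 Mb windows with the most peaks, 2 and 3, lie in the distal part. Those with the most strong peaks, 16 and 17, lie in the proximal part. Leaving either pair out, a choice made after seeing the data, was certain to lower the density of these peaks in its part. No matching windows were left out of the other part. With windows 2 and 3 left out, the distal density went from 35.0 to 28.6 per Mb, beside 26.6 in the proximal part. With windows 16 and 17 left out, strong peaks stood at 7.06 per Mb in the proximal part and 7.14 in the distal part, where before the proximal value had been 9.33. The share of strong peaks stayed higher in the proximal part in both cases, at 35.1% against 23.1% and at 30.3% against 20.4%.

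On the autosomal arms, the shares of strong peaks in the distal and proximal parts lay closer together. They were 19.0% and 22.3% on 2L, 20.0% and 17.5% on 2R, 18.0% and 15.6% on 3L, and 16.9% and 16.0% on 3R. Peak density took different courses on these arms. From the distal to the proximal part it went from 43.5 to 25.4 per Mb on 2L, beside 35.0 to 26.6 on X. It went from 39.6 to 53.1 on 2R, from 39.0 to 41.7 on 3L and from 36.4 to 47.5 on 3R. Whether X differed from these arms in share or density was not tested.

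By 1 Mb window the X was uneven. The 21 full windows, numbered from the telomere, held between 7 and 77 peaks with a median of 29. The last window, cut at the last peak end, was 0.859 Mb long with 12 peaks. Each of the 22 windows held at least 1 strong peak. Across the 21 full windows the number of strong peaks and the number of all peaks had a Spearman rho of 0.68, a description of windows of the same list in which strong peaks are counted in both.

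**Figure D3:**
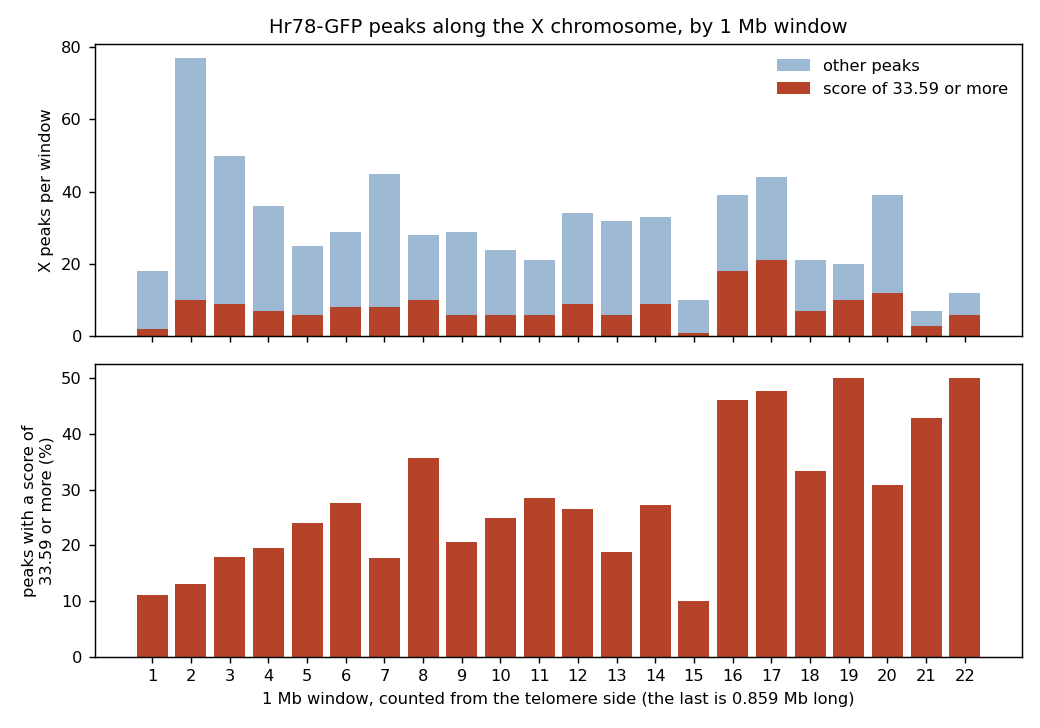
Upper plot, number of X peaks in each 1 Mb window from the telomere side (horizontal axis, window number), with strong peaks in the darker colour; lower plot, strong peaks as a percentage of the peaks in the window; bars start at 0 and have no error. Window 2 is the fullest with 77 peaks of which 13.0% are strong, and window 17 holds the most strong peaks, 21 of 44.

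The first megabase was thinly occupied. It held 18 peaks, 2 of them strong, and its best site was a 1995 bp peak at 387101 to 389095 with a score of 58.89. The peak nearest the telomere lay at 13922 to 14219 with a score of 15.01, and the next at 46164 to 46445 with 18.82. From the end of the 58.89 peak no strong peak followed for 820 kb, although 21 weaker peaks lay in that stretch.

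Windows 2 and 3 were crowded, most of all with weak peaks. They held 127 peaks, 18.9% of those on X, at 63.5 per Mb, against 25.9 per Mb outside windows 2, 3, 16 and 17. Windows 2 and 3 were picked because they held the most peaks, so a higher density than elsewhere follows from the choice. Their median score was 13.71, and 19 of the 127 (15.0%) were strong. Weak peaks stood at 34.5 per Mb, against 10.5 outside the 4 windows. Strong peaks were denser here too, at 9.5 per Mb against 6.83. Of the 127 peaks 54, or 42.5%, belonged to groups with gaps of at most 500 bp, against 25.1% outside the 4 windows. The best sites here were a 1276 bp peak at 1936044 to 1937319 with a score of 163.79 and a 1321 bp peak at 2051792 to 2053112 with 129.47.

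Windows 16 and 17 were the stretch of strong peaks. They held 83 peaks, 12.3% of those on X, but 39 of the 180 strong ones, 21.7%. Strong peaks stood here at 19.5 per Mb, against 6.83 per Mb outside windows 2, 3, 16 and 17. Windows 16 and 17 were picked because they held the most strong peaks, so this excess follows from the choice. The median score was 28.31, and 8 of the 20 highest X peaks lay in these 2 windows. Window 15, directly on the telomere side, held 10 peaks, fewer than any other window except window 21, and 1 of them was strong.

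The end of the arm next to the centromere was sparse again. Window 21 held 7 peaks and window 22 held 12, with 3 and 6 strong ones. The best of window 21 scored 76.31 at 20122396 to 20123469, and the best of window 22 scored 133.81 at 21501140 to 21502473. The last peak of the arm lay at 21857227 to 21858633, was 1407 bp wide and scored 58.34.

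Of the 20 strongest X sites, 15 lay in the proximal part and 5 in the distal part. The proximal part held 102 of the 180 strong X peaks and 291 of all 673. Windows 16 and 17 alone held 8 of the 20. The highest score, 253.93, belonged to a 1361 bp peak at 15689513 to 15690873. The peak that ranked sixth, with a score of 205.79, lay 2047 bp beyond its end at 15692921 to 15693932. The fourth, at 15880328 to 15881779, scored 214.5, and another at 15827325 to 15828500 scored 164.56. These 4 sites all fell in window 16, within 192 kb.

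Window 17 held 4 further peaks of the 20 highest. They were at 16110554 to 16112036 (score 193.08), at 16278577 to 16279640 (177.07), at 16970693 to 16972030 (164.56) and at 16042996 to 16043519 (150.07). The first and the third of them stood alone, at 53864 bp and 70790 bp from the nearest other peak centre. The last was 389 bp from the peak just outside the 20, a 1101 bp peak at 16041506 to 16042606 with a score of 147.07.

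Window 20 held 3 of the 20, among them the second highest on the chromosome. It scored 245.2 at 19530933 to 19532430, in a 100 kb window with 13 peaks. The other sites of this window were a 2213 bp peak at 19389069 to 19391281 with 187.43 and a 1937 bp peak at 19471804 to 19473740 with 154.6. Nearby windows gave 197.15 at 17720756 to 17721644 and 163.79 at 18682125 to 18682748.

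In the rest of the arm strong sites were spread, at most 1 of the 20 to a window. The third highest X peak, 2177 bp wide with a score of 233.12, lay at 5930091 to 5932267. No peak was listed for 182 kb on its centromere side, and its nearest neighbour was 23.7 kb away. A 769 bp peak at 6746478 to 6747246 scored 206.18 inside one of the fullest 100 kb windows, and a peak at 7954795 to 7956453 scored 159.94. Towards the middle of the arm followed 169.22 at 10709540 to 10710062, 173.92 at 11029742 to 11032168 and 188.24 at 12547733 to 12548868.

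As a set, the 20 highest were wide. Their scores ran from 150.07 to 253.93 with a median of 182.25, and their widths from 523 to 2427 bp with a median of 1307 bp. Of the 20, 15 were 1000 bp or wider, 5 (25.0%) belonged to a group with gaps of at most 500 bp, beside 28.8% of all X peaks, and 3 had no other peak centre within 20 kb. In the whole list they ranked from 7 to 96.

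Wider peaks had higher scores. The median X width was 455 bp, with quartiles of 303 and 753 bp and extremes of 201 and 3168 bp, and the median on the 4 large autosomal arms was 396 bp. Width and score had a Spearman rho of 0.75 over the 673 X peaks, which are not independent, and both describe the same pile-up of reads. The 167 peaks of up to 300 bp had a median score of 9.84 and none exceeded 25.39. The 12 peaks wider than 2000 bp had a median of 108.6 and none fell below 26.63.

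Peaks of 1000 bp or more numbered 100 on X, 14.9% (exact 95% interval 12.3% to 17.8%), beside 12.3% of the whole list. Of these 74 were strong and 3 were weak. The widest X peaks were not the highest ones. A 3168 bp peak at 15783520 to 15786687 and a 3127 bp peak at 11607707 to 11610833 both scored 116.75 and shared rank 35 on X. Among the 10 widest, the scores ran from 46.63, for 2471 bp at 2030174 to 2032644, to 187.43, for the 2213 bp peak of window 20. The reverse was seen in a few narrow strong sites, such as the 523 bp peak with a score of 169.22 and the 524 bp peak with 150.07.

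**Figure D4:**
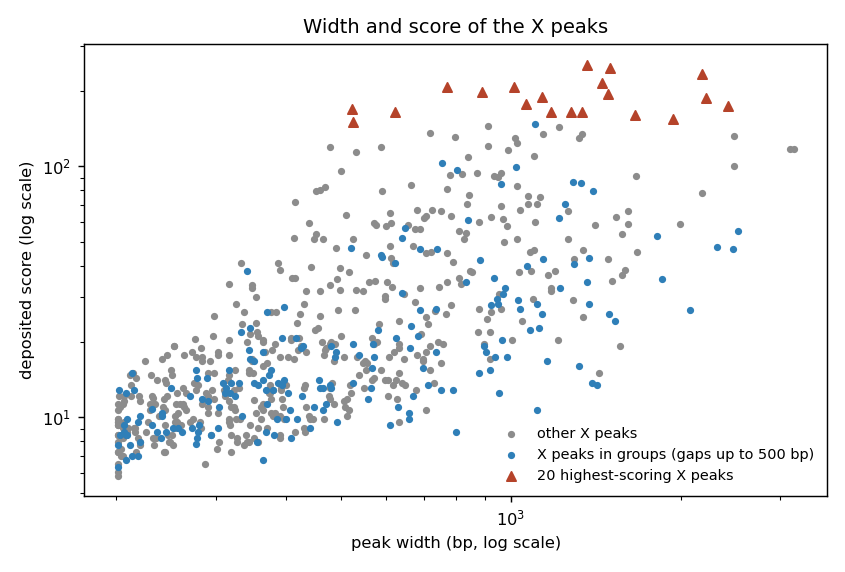
Deposited score (vertical axis, log scale) against peak width in bp (horizontal axis, log scale) for the 673 X peaks; triangles are the 20 highest-scoring peaks and blue points are peaks in groups with gaps of at most 500 bp. Score goes up with width, and the 20 highest span widths from 523 to 2427 bp.

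Neighbouring peaks on X stood farther apart than on the large autosomal arms. The median distance between neighbouring centres was 9292 bp over 672 pairs, with quartiles of 1896 and 32134 bp, against 5654 bp on 2L, 2R, 3L and 3R. Pairs within 1 kb made up 12.6% on X and 18.4% on these arms. No class of distance stood out on X. The classes of up to 1, 1 to 2, 2 to 5, 5 to 10, 10 to 20 and 20 to 50 kb each held between 85 and 101 pairs. A further 58 pairs were 50 to 100 kb apart, and 66 were more than 100 kb apart.

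**Figure D5:**
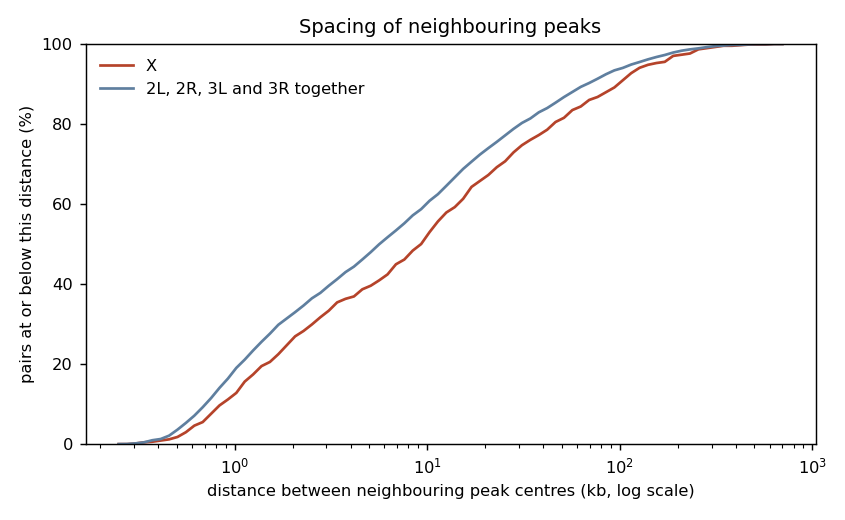
Percentage of neighbouring pairs (vertical axis) whose peak centres are at most a given distance apart (horizontal axis, kb, log scale), for the 672 pairs on X and the 3927 pairs on 2L, 2R, 3L and 3R. The X curve lies to the right over most of the range, with medians of 9292 and 5654 bp.

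Peaks that stood alone were more often strong than peaks with a close neighbour. On X 103 peaks (15.3%, exact 95% interval 12.7% to 18.3%) had no other centre within 20 kb, beside 10.7% on the 6 arms, which are X, chromosome 4 and the 4 large autosomal arms. Of these 32 (31.1%) were strong. Another centre within 1 kb was found for 145 X peaks (21.5%), beside 30.7% on the 6 arms, and 19 of them (13.1%) were strong. The other 425 peaks had a strong share of 30.4%. Short distances between centres tend to leave out wide peaks, and strong peaks were wide, with a median of 873 bp. By the gap between edges the contrast was smaller, at 19.6% strong for peaks in groups with gaps of at most 500 bp and 29.6% for the rest.

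Dense stretches on X were few and short, and strong peaks made up a smaller share of them than of X as a whole. Of 219 windows of 100 kb, counted from position 1, 54 held no peak (24.7%), the median was 2, and the fullest held 17. The 35 fullest windows, 16.0% of all, held 342 of the X peaks (50.8%). The 10 fullest, which became 11 with ties, held 12 to 17 peaks each and 159 together. Of these 159 peaks 28 (17.6%) were strong, against 26.7% over X. Per length, strong peaks were still denser there, as these 28 were 15.6% of the strong X peaks on 5.0% of the windows.

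Most of the fullest windows lay on the telomere side. The pair from 3500001 to 3700000 held 17 and 15 peaks, and the pair from 1800001 to 2000000 held 13 and 16. The window at 1500001 to 1600000 held 15, and that at 2100001 to 2200000 held 14. Farther along the arm stood 6700001 to 6800000 with 15 peaks and 12600001 to 12700000 with 17. Nearer the centromere came 15700001 to 15800000 with 12, 16100001 to 16200000 with 12 and 19500001 to 19600000 with 13. This last window had the highest median score of the 11 windows, 23.39, and 5 strong peaks, while the windows at 1800001 and 2100001 had none.

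Runs of closely spaced peaks were shorter than these windows. When peaks whose centres were at most 10 kb apart were chained, 7 chains of 10 or more peaks held 93 peaks (13.8%) on 0.181 Mb, or 0.83% of the span. A chain of 17 peaks, the most found, on 23.6 kb from 3567753 to 3591307, with a median score of 13.71 and a highest of 44.1. Another 17 peaks lay on 44.6 kb from 12610804 to 12655409, with a highest score of 79.36. A chain of 14 peaks from 2186303 to 2216183 had no score above 20.3. The 14 peaks from 6737224 to 6768631 included the site with 206.18.

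Tight groups, in which successive peaks were at most 500 bp apart, numbered 78 on X and held 194 peaks, 28.8%, beside 35.9% on the 6 arms. They were 53 pairs, 16 triplets, 6 groups of 4, 2 of 5 and 1 of 6. The 25 groups of 3 or more held 88 peaks, 13.1%, beside 14.3% on the 6 arms. In 59 of the 78 groups the highest-scoring peak was also the widest. Width and score of the grouped peaks had a Spearman rho of 0.73, so this count follows in part from that relation. No peak of the group was strong in 45 of the 78. Of the grouped peaks 19.6% were strong, beside 26.7% of all X peaks. Neither count of groups has a value from the other arms beside it.

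Groups were most frequent in the part of the span at the telomere side, though not next to the telomere itself. In part 1 of the span 79 of 190 peaks (41.6%) belonged to groups, and in parts 2 to 5 the share was 29.5%, 25.6%, 21.7% and 16.0%. Within part 1, window 1 had 2 of its 18 peaks in groups (11.1%), and window 4 had 63.9%. Farther along the arm, windows 7 and 10 had 44.4% and 41.7%. Of the 9 groups with 4 or more peaks, 5 lay in part 1. The largest, 6 peaks on 5820 bp from 1510395 to 1516214, began with an 1852 bp peak that scored 35.42, and its other 5 peaks scored 8.23 to 13.71. In the group of 5 from 3635177 to 3640625, peaks of 47.65 and 103.11 stood next to each other, flanked by scores of 10.68, 10.68 and 6.76. In the other group of 5, from 2194569 to 2197966, the scores were level, between 9.02 and 19.57.

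The remaining groups of 4 showed both forms. At 2016041 to 2018585 a peak of 86.21 was flanked by scores of 8.49 to 15.01, and at 1844159 to 1846466 a peak of 30.91 by scores of 8.23 to 12.46. At 15751699 to 15754258 the last peak scored 38.22 and the others 10.97 to 14.03. The group at 12647853 to 12650824 had its higher scores at its ends, 46.63 and 47.14. The groups at 6760901 to 6763009 and at 16168143 to 16170905 had highest scores of 14.68 and 34.5.

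Between these stretches lay long intervals without a listed peak, counted from each peak to the next. Sequence before the first peak and beyond the last was not counted, so an empty end of an arm does not appear among them. The 65 intervals of 100 kb or more summed to 11.8 Mb, 54.1% of the X span. On 2L such intervals made up 53.2%, on 2R 40.9%, on 3L 45.7% and on 3R 46.4%. The X and 2L values lay close together, above those of the other arms. The 19 intervals of 200 kb or more on X covered 5.64 Mb, or 25.8% of the span, and 7 of them lay in part 5, against 3, 3, 4 and 2 in parts 1 to 4.

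The longest interval, 629 kb from 20295116 to 20924347, lay near the centromere, inside window 21. It was followed by 443 kb at 11923164 to 12366249, in the middle of the arm, and by 408 kb at 3056669 to 3464334. The last of these ended 103 kb before the chain of 17 peaks that starts at 3567753. Next came 341 kb at 21504239 to 21844924, 335 kb at 14141722 to 14476815 and 302 kb at 7219135 to 7521027. The next 4, of 288, 273, 271 and 253 kb, began at 18759051, 17199780, 19781894 and 21247761, all in the proximal part.

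The peaks at the edges of these intervals had scores close to those of the other X peaks. The 38 edges of the 19 intervals had a median score of 17.05, the same as all X peaks, and 12 (31.6%) were strong. Some edges were among the highest sites, such as 133.81 at 14476816 to 14477953, which closed the 335 kb interval and was followed by another of 188 kb. When only peaks at or above the list's median score were kept, the longest interval was 631 kb, at the same place and with 1 weak peak inside. For strong peaks alone it was 831 kb, from 20123470 to 20954229, with 3 other peaks inside.

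X scores took few distinct values and nearly all lay on a discrete series. The 673 scores had 203 distinct values, and the most frequent, 9.02, occurred 17 times. For 636 of them (94.5%, exact 95% interval 92.5% to 96.1%), the score was at most 0.011 away from the −log10 tail probability of a Poisson distribution with a mean of 66.9 counts, taken as the background and fitted on the whole list. On 2L the share was 75.5%, on 2R 75.6%, on 3L 76.2% and on 3R 75.9%. Read on this series, the X peaks had pile-ups of 108 to 503 counts, 1.61 to 7.52 times the background, with a median of 2.18 times. The count is uncertain by 1, and the reading assumes that the series is how the score was made, which no source used here states.

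The 37 X scores off the series were 5.5% of the members, beside 22.0% of the whole list. Of these 20 repeated 3 values, 17.39, 18.82 and 38.22, which lay at most 0.0143 from the series and so just outside the tolerance. The other 17 occurred once each on X, although some recurred elsewhere in the list, such as 10.8, listed 8 times. Among the 17, 81.2 and 33.6 also lay just outside the tolerance, at 0.0111 and 0.0136. Of the 17, 8 lay in windows 2 and 3, among them 79.65 at 2969670 to 2970260 and 82.55 at 2974568 to 2975035. The site that ranked sixth on X, with 205.79, was also off the series by 0.394.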

How the data were processed

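The deposited peak list gives 673 rows on X, each with a start, an end and a score; the score was made by the authors with MACS, per the file headers and source column. The submitters' processing notes name CASAVA (1.7.0.2 and 1.7.0.3), BWA and MACS2 with build BDGP5, without role or order. The threshold, the definition of the score and the pooling of replicates are not given in these sources. Whether the 2 ChIP libraries came from separate cultures is not given either. Starts and ends, other values of the deposited file, were used as listed by the authors.

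Widths, centres, distances, windows, groups and chains were computed from these values in Python 3.11.15 (numpy 2.4.6, scipy 1.17.1, pandas 2.3.3, matplotlib 3.10.9). An arm's length was its last peak end. The Poisson mean was fitted between 20 and 200 in steps of 0.01, then 0.0005, and the fit was tested on simulated data. Exact intervals are Clopper-Pearson, treat peaks as independent and cover counting error only.

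Members, lists and settings were chosen with earlier results of these data known. Named regions followed a fixed rule: the 20 highest and 10 widest peaks, the first and last, the best peak of a 1 Mb window, the 10 fullest 100 kb windows, the 10 longest intervals and groups of 4 or more. Chains, windows 2, 3, 16 and 17, and other peaks named beside them were picked after values were seen. Gene names and sequences are not used here, because the gene table at hand is of release 6.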

Additional observations from a re-analysis of the deposited data

How the results depend on the processing

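Of 39 alternatives for 12 results, 22 stayed within their limits (1.5 times for densities, distances, counts and differences, the quartiles for score and width, the exact interval for shares), 14 moved and 3 changed sign. With strong peaks alone, X density was 8.23 per Mb, the median score 60.0, the median width 873 bp and the median distance 43212 bp, as fewer and higher peaks were kept. The density ratio to the 4 large autosomal arms was then 1.14 in place of 0.76. The distal minus proximal density then turned from 8.33 to -2.20 per Mb, and the X minus autosomal median score from 3.34 to -0.56; the cause was not tested for these 3. With peaks at or above the list's median score, X density was 17.7 per Mb, the median distance 20097 bp, the X minus autosomal median score 5.55 and the distal minus proximal density 2.84 per Mb, which was 4.12 with peaks merged at 500 bp and 1.93 without windows 2 and 3. The distal minus proximal density of strong peaks, -2.20 per Mb, turned to 0.081 without windows 16 and 17. Windows 2 and 3 were left out of the distal part alone, and windows 16 and 17 of the proximal part alone. Each pair was picked for the highest counts, so the direction of both moves was certain. The fullest window held 26 peaks when the 100 kb grid was shifted by 50 kb, at 3550001 to 3650000, and 29 with 200 kb windows, at 1800001 to 2000000. With a tolerance of 0.0051 the share of X scores on the series was 91.1%, lower by construction. No paired analysis was possible because the values come from a single list with no value per library, and for the same reason no replicate could be left out. Unknown depth limits how far weak peaks can be read.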
